A study of Mus musculus with 14 samples.

Results

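Tandem poly(A) sites are neighbouring sites of cleavage and polyadenylation on one strand. The pairs described here, called mid-distance pairs, are the 1132 whose sites lay at least 300 and under 1000 nt apart, out of 3304 tandem pairs 100 to 5000 nt apart in 14 mouse libraries. Closer pairs, at least 100 and under 300 nt apart, numbered 797, and wider pairs, 1000 to 5000 nt apart, numbered 1375. In each pair the proximal site is the upstream one and the distal site the downstream one, and the distal share is the percentage of the pair's tags that fall at the distal site. Pairs were chosen by their distance and their tags. A pair was taken when both sites held 20 or more tags in at least 2 of the 14 libraries, each site held at least 5% of the pair's tags summed over the libraries, and 6 or more tissue libraries held 20 or more tags of the pair. In all, 1791 pairs of neighbouring kept sites lay at this distance, of which 251 had a site under 5% and a further 408 had too few libraries with 20 tags. The tags that chose the pairs are the values described below, so the presence of both sites is no result.

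Sites were read by 3P-seq, a sequencing method that captures the 3′ end of a transcript next to its tail and counts it as a tag. Kidney, lung, liver, heart, muscle and white adipose tissue gave 1 library each from wild-type mice and 1 each from mice with a knockout of the microRNA miR-22, 12 tissue libraries in all. A mouse embryonic stem cell library (mESC) and a library of 3T3, a mouse fibroblast line, complete the 14. The labels give the background 129S5/SvEvBrd for every library, name no age, sex or shared animal, and state that there was no biological replication, so p-values here measure spread among tissues and single libraries, not among animals. Tissue identity was not checked against marker genes, since gene names of build mm9 are not used here.

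Many mammalian genes carry more than one poly(A) site in their last exon. Use of the proximal site gives a transcript with a short 3′ untranslated region, and use of the distal site adds sequence that can hold microRNA target sites and other regulatory elements. The choice is known to vary with tissue and with proliferation, and stem cells and cultured lines are known for frequent use of proximal sites. A pair need not lie in 1 gene, and which gene a pair belongs to was not analysed here.

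The microRNA removed in the knockout libraries is shown because it defines the genotype that the pairs were compared across. Its main mature strand (RefSeq, table of build GRCm38.p6), 22 nt long, is printed with the seed, bases 2 to 8 from the 5′ end, in capitals.
miR-22-3p: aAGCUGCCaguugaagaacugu
The sequence of the pairs themselves is not shown, because no genome of build mm9 was used here.

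The libraries held between 2036838 tags (knockout adipose tissue) and 6010465 tags (knockout lung), and the pairs took between 4.46% (wild-type muscle) and 11.5% (knockout kidney) of a library's autosomal tags. The median pair held 26 tags in knockout muscle, the thinnest library for these pairs, and 204 tags in knockout lung. The pairs with 20 or more tags numbered 716 in knockout muscle and 1124 in knockout lung, 834 in mESC and 888 in 3T3. In all, 547 pairs held 20 or more tags in every tissue library and 471 in all 14 libraries.

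The median distance between the 2 sites was 554.5 nt, with 597 pairs on the plus strand and 535 on the minus strand. Merged sites were 74 nt wide at the median, for proximal and for distal sites alike. Another kept site lay within 5000 nt of 670 pairs, and 462 pairs stood alone. Some sites were shared: 217 pairs had a site in common with another pair, so pairs are not independent of each other. The autosomes held between 32 pairs (chromosome 15) and 101 pairs (chromosome 11). Per 100 kept sites, chromosome 7 held the fewest, 4.28, and chromosome 18 the most, 7.87. At the edges of the rule, 32 pairs lay within 10 nt of the lower limit with a median distal share of 50.1%, beside 22 pairs just outside at 290 to 298 nt with 79.1%. Inside the upper edge, 14 pairs 992 to 998 nt apart had 59.8%, beside 13 pairs within the next 10 nt with 68.3%.

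Both sites were in broad use. Over the 547 pairs with 20 or more tags in every tissue library, the mean distal share of a pair over the tissues had a median of 53% and an interquartile range of 25.8% to 78.6%. The distal site held over 50% of the tags in 288 of them (52.7%). Between its highest and lowest tissue a pair's share moved by 18.8 percentage points at the median (interquartile range 12.8 to 28.1). The range stayed under 10 points in 80 pairs (14.6%) and exceeded 50 points in 12 pairs (2.19%). The same share exceeded 50 points in 44 of 608 wider pairs (7.24%) and in 3 of 357 closer pairs (0.840%), a comparison given without a test.

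Single libraries limit how finely such shares can be read. The genotypes of a tissue differed by 6.33 points in the median pair, and different tissues by 8.26 points. By tissue, the difference between the 2 genotypes ran from 5.13 points in liver to 7.89 points in adipose tissue. Liver and kidney, averaged over genotypes, differed by 4.91 points in the median pair, the smallest of the 15 tissue comparisons, and muscle and kidney by 8.33 points, the largest. These 15 values compare means of 2 libraries and the genotype differences compare single libraries, so they cannot be set against each other. Across pairs, the Spearman correlation of the distal share between libraries was 0.893 to 0.949 for the 2 libraries of a tissue and 0.780 to 0.933 for libraries of different tissues. It was highest on average for liver with kidney (0.922) and lowest for muscle with lung (0.815). These correlations describe 471 pairs that share tags and library depth, and they carry no test.

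The first comparison asked whether the typical pair ended further downstream in some tissues. The median distal share over the 547 pairs was 57.9% in wild-type and 54.8% in knockout lung, the highest value of each genotype. It was 51% and 50% in adipose tissue, the lowest value of each genotype. With wild type first, kidney had 51.9% and 54.3%, muscle 53.3% and 54.2%, heart 53.8% and 53.3%, and liver 52.7% in both genotypes. Lung thus lay above the 10 other libraries and adipose tissue below them.

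Lung stood 3.63 points above the mean of the other tissues (56.4 ± 2.23, SD, n = 2 libraries, against 52.7 ± 1.41, n = 10; exact two-sided permutation over 66 choices of libraries, p = 0.0152, adjusted over 6 tissues 0.0909). Without the wild-type lung library the lung difference was 2.05 points, and without the knockout one 5.21. Adipose tissue differed by -3.39 points (50.5 ± 0.722, n = 2, against 53.9 ± 1.67, n = 10; exact permutation p = 0.0303, adjusted 0.0909). Neither passed an adjusted p of 0.05, but 0.0909 is the smallest adjusted value that 66 choices and 6 tissues allow. The test therefore could not decide at that threshold. It also treats libraries as exchangeable although each tissue gave 2. The other 4 tissues differed by at most 0.745 points, with exact permutation p-values of 0.636 and above. Depth moved with this result, since the 2 lung libraries hold the most tags per pair (132.5 and 204 at the median), and its part was not tested for the median.

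**Figure D1:**
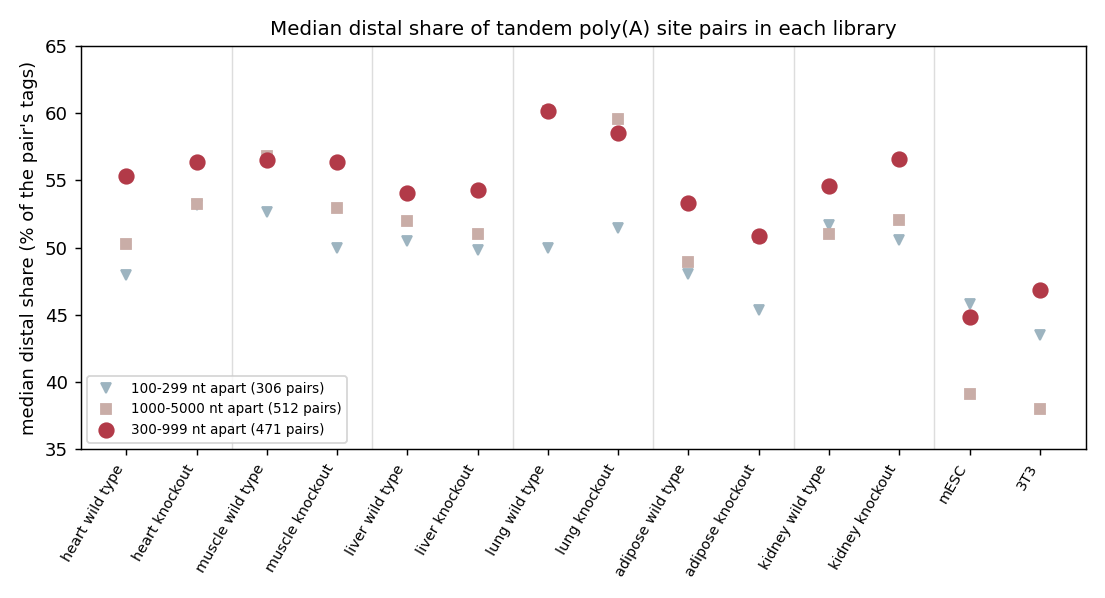
Median distal share (percent of a pair's tags, vertical axis) in each of the 14 libraries (horizontal axis) for pairs with 20 or more tags in all 14. Circles are the 471 mid-distance pairs, triangles 306 closer pairs and squares 512 wider pairs. The circles lie at 60.2% and 58.6% in lung and at 44.9% and 46.9% in mESC and 3T3, with the other tissue libraries between 50.9% and 56.6%.

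Within this range of distances the lung excess was uneven. Pairs 900 nt or more apart had a median distal share of 67.6% in lung and 51.2% in the other tissues (57 pairs), whereas pairs 300 to under 400 nt apart had 48.8% and 48.7% (128 pairs). The bins between did not follow a steady order: the lung difference was 8.66 points from 400 nt, 3.90 from 500 nt, 0.777 from 600 nt, -0.776 from 700 nt and 7.29 from 800 nt, in steps of 100 nt. These bin values are medians without a test. Pairs with no other kept site within 5000 nt showed 57% in lung against 50.8% elsewhere (228 pairs), and pairs with one showed 56.5% against 54% (319 pairs).

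Compared with closer and wider pairs, the mid-distance pairs had a mean of tissue medians of 53.3%. It was 50.2% for closer pairs, lower in 6 of 6 tissues by 3.14 ± 1.71 points (SD over tissues; exact two-sided sign-flip permutation p = 0.0312, the smallest that 6 tissues allow; adjusted over 2 distance classes 0.0625). It was 52.7% for wider pairs, a difference of 0.620 ± 3.11 points with 4 tissues higher and 2 lower (exact sign-flip permutation p = 0.62). Neither difference passed an adjusted p of 0.05 in this main setting.

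The second comparison tested each pair. A model across all 3304 pairs (edgeR's quasi-likelihood test, Benjamini-Hochberg adjustment over all 3304, called at an adjusted p under 0.05) asked whether the odds of the distal site differed among the 6 tissues. Such a call was made for 195 of the 1132 pairs (17.2%), beside 21.9% of all pairs tested. The share was 13.6% (108 of 797) for closer pairs and 30.6% (421 of 1375) for wider pairs. By distance within the range, the called share ran from 13% at 700 to under 800 nt to 26.7% (32 of 120) from 900 nt. Called pairs held 1332 tags over the tissue libraries at the median, more than the other pairs. In bulk tissue a shift in site use between cell types and a change in the cell types present cannot be told apart.

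Set against the mean of the other 5 tissues, 212 of the 1132 pairs (18.7%) were called in at least 1 tissue, beside 22.5% of all 3304 pairs. Of the 212, 152 were called in 1 tissue, 42 in 2 and 18 in 3 or more. Lung had the most calls, with 64 pairs more distal (8.14% of all 3304 pairs) and 33 more proximal (2.88% of all). Muscle had 30 more distal (3.57% of all) and 30 more proximal (2.75% of all). Adipose tissue had 12 more distal (1.51% of all) and 29 more proximal (2.88% of all). Liver had 15 more distal (1.73% of all) and 24 more proximal (2.63% of all). Kidney had 16 more distal (1.69% of all) and 21 more proximal (2.36% of all). Heart had the fewest, 9 more distal (1.12% of all) and 16 more proximal (1.91% of all). In percent of the 1132 pairs these counts run from 0.795% to 5.65%, below the share over all pairs except for the 33 lung pairs (2.92%).

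**Figure D2:**
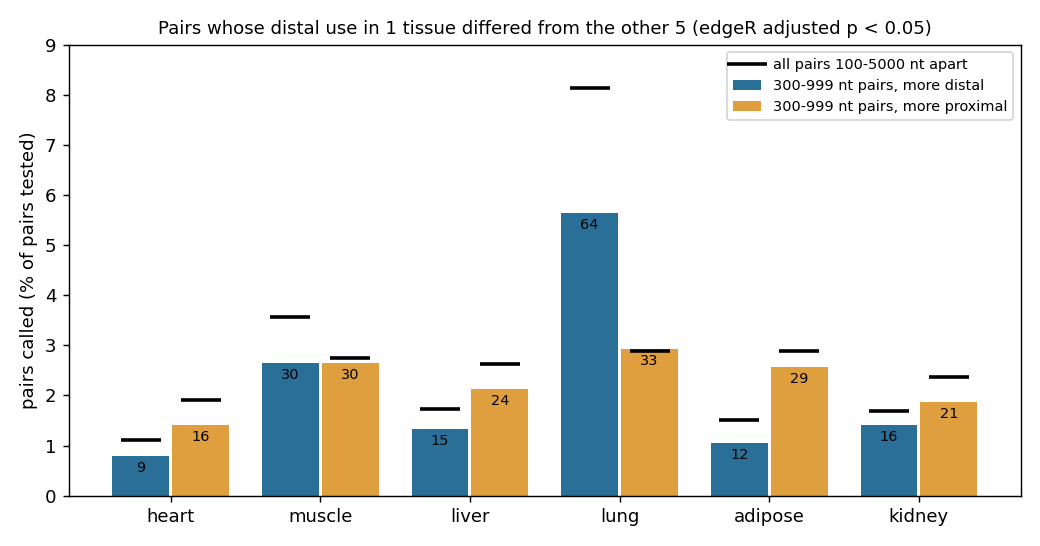
Pairs called in each tissue against the other 5 (horizontal axis) as a percentage of the pairs tested (vertical axis). Blue and orange bars are mid-distance pairs called more distal and more proximal, with their number in the bar, and black dashes are all 3304 pairs. The blue lung bar (64 pairs, 5.65%) is the tallest and lies below its dash (8.14%).

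The direction of the lung calls depended on scaling. The log2 odds of the distal site in lung were shifted by 0.18 at the median pair and by 0.25 over all pairs tested. The medians were -0.01 for closer pairs and 0.42 for wider pairs. Scaling by TMM over proximal and distal columns, which removes 0.45 and 0.49 (log2) from the 2 lung libraries and between -0.02 and 0.14 from the others, gave 27 lung pairs more distal and 78 more proximal. With DESeq2 the lung calls were 23 more distal and 40 more proximal. Without the wild-type lung library they were 23 and 10, and with every library thinned to the depth of the smallest they were 38 and 16. Calls towards the distal site were thus the more frequent in the main scaling, and calls towards the proximal site with TMM and DESeq2. TMM removed more from lung than the median shift of these pairs, so its split is not one relative to that median.

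The single calls rest on few libraries, because each tissue has 2. The counts (more distal, then more proximal) were 1 and 2 in muscle without its wild-type library and 7 and 13 without its knockout library. They were 0 and 0 in adipose tissue without its knockout library and 8 and 5 without its wild-type library. Liver fell to 3 and 3 without its wild-type and 2 and 2 without its knockout library, kidney to 2 and 2 and to 6 and 4 in the same order, and heart to 0 and 4 and to 4 and 7. Other scalings also moved the split in muscle, to 39 and 25 by TMM, in adipose tissue, to 12 and 19 by TMM and 13 and 13 by DESeq2, in heart, to 11 and 12 by TMM, and in kidney, to 14 and 13 by DESeq2.

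A shift in use can come with more transcripts at one site or fewer at the other. Abundance of each site was tested with edgeR over 17919 kept autosomal sites. Over the 12 sets of calls, a call was most often one in which the more used site changed: in 168 the more used site was itself higher in that tissue and the other site was not called lower. In 101 the less used site was lower and the more used site was not called higher. Both were called in 19 and neither in 11. In lung the 2 kinds were nearly equal among pairs called more distal, 28 with a higher distal site and 27 with a lower proximal site, whereas in adipose tissue 19 of 29 pairs called more proximal had a higher proximal site alone. These splits describe the calls and were not tested against each other. The same tags enter the call on use and the call on site abundance. The splits were counted for the mid-distance pairs only, so whether they differ from those over all tandem pairs was not tested.

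For each tissue, up to 2 pairs in each direction are described, those of largest shift whose 2 libraries both lay beyond all other libraries with enough tags. Positions are in mm9, counted from 1. Shifts are log2 differences in the odds of the distal site against the mean of the other 5 tissues with their standard error, and adjusted p-values are edgeR's over all 3304 pairs. Site levels are CPM values, which are tags scaled to library size, here by TMM. A site is said to rise or fall where edgeR called it against the mean of the other 5 tissues.

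In heart, the pair of largest shift to the distal site lies on the plus strand of chromosome 8, with sites at 131256516 and 131256962, 446 nt apart. Wild-type heart had a distal share of 37.1% and knockout heart of 20.3%, with 0 to 11% (median 4.16%) in the other 10 libraries. The shift was 3.60 ± 0.62 (adjusted p = 0.000979). The distal site was at 7.02 and 5.17 CPM in heart against 0 to 3.42 elsewhere, while the proximal site, at 11.9 and 20.3 CPM, was not called (edgeR adjusted p = 0.231). A pair on the minus strand of chromosome 6 (72561184 and 72560467) ended distally in 97% and 92.3% of heart tags and in 38.5% to 90% (median 68.9%) elsewhere, a shift of 3.07 ± 0.59 (edgeR adjusted p = 0.00272). Its distal site rose in heart, to 35.1 and 23.9 CPM against 3.59 to 14.8.

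Among the tissue entries described, the largest shift to a proximal site was in heart. The pair on the plus strand of chromosome 18 (35750459 and 35751122, 663 nt apart) had a distal share of 2.48% and 2.46% in heart and of 8.64% to 68% (median 27.5%) elsewhere, a shift of -4.08 ± 0.48 (edgeR adjusted p = 3.57e-06). Its proximal site rose to 191 and 173 CPM against 11.2 to 123 elsewhere, and its distal site fell to 4.86 and 4.38 CPM against 5.76 to 44.2. On chromosome 13 (plus strand, 120246176 and 120247020) the share was 1.39% and 1.62% in heart and 3.41% to 58.1% elsewhere, a shift of -3.89 ± 0.63 (edgeR adjusted p = 0.000419). Muscle was the nearest tissue for both pairs, with 8.64% and 9.21% for the first and 4.69% and 3.41% for the other. Without the wild-type heart library the 2 distal calls of heart were lost (edgeR adjusted p = 0.0809 on chromosome 8 and 0.394 on chromosome 6), and neither proximal call was.

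Muscle used the distal site almost exclusively in a pair on the minus strand of chromosome 16 (14299717 and 14299333, 384 nt apart). Its distal share was 99.6% and 100% in muscle and 57.6% to 99.4% (median 80.6%) elsewhere, a shift of 5.19 ± 0.91 (edgeR adjusted p = 0.000826). The high values elsewhere were the heart libraries, at 99.4% and 97.8%. In the pair on chromosome 10 (minus strand, 7349990 and 7349178) the share was 97.8% and 95.6% in muscle and 65.5% to 89.7% elsewhere, a shift of 2.95 ± 0.46 (edgeR adjusted p = 0.000249). There the distal site rose to 349 and 289 CPM against 23.2 to 115, and the proximal site was not called (edgeR adjusted p = 0.655).

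Muscle was the most proximal tissue in a pair on the minus strand of chromosome 17 (25975780 and 25975403, 377 nt apart), with distal shares of 66% and 45% against 72.3% to 98.4% (median 95.2%) elsewhere. The shift was -3.61 ± 0.50 (edgeR adjusted p = 5.61e-05). Heart again came closest, at 79.9% and 72.3%. The same pair was called more distal in adipose tissue, at 98.4% and 97.7% (2.62 ± 0.60, edgeR adjusted p = 0.0130). On chromosome 13 (plus strand, 49064484 and 49065272) muscle had 13.2% and 25% and the others 34% to 84.5%, a shift of -3.44 ± 0.59 (edgeR adjusted p = 0.000710), again with heart nearest at 34% and 39.4%. In both pairs the proximal site rose and the distal site fell in muscle. Leaving out the wild-type muscle library ended 3 of these 4 muscle calls (edgeR adjusted p = 0.0803 on chromosome 10, 0.101 on chromosome 16 and 0.178 on chromosome 13), but not that on chromosome 17.

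In liver, the clearest call was towards a proximal site, in one of the most abundant pairs (plus strand of chromosome 11, 54723544 and 54723877, 333 nt apart, 176846 tags over the 14 libraries). Its distal share was 92.2% and 88.2% in liver and 93.5% to 99.8% (median 97.9%) elsewhere, a shift of -3.03 ± 0.42 (edgeR adjusted p = 3.08e-05). The distal site fell to 277 and 240 CPM against 490 to 21533 elsewhere, the highest in kidney, and the proximal site was not called (edgeR adjusted p = 0.614). The merged proximal site of this pair is broad, from 54722943 to 54723699, and ends next to the distal one, which starts at 54723703. The other proximal pair, on chromosome 4 (minus strand, 49526838 and 49526236), had 11.2% and 4.40% in liver and 14% to 60% in the 8 other libraries with 20 tags, a shift of -2.03 ± 0.55 (edgeR adjusted p = 0.0371).

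Calls towards distal sites in liver were smaller. A pair on chromosome 18 (plus strand, 84266597 and 84266904) had 65.1% and 54.8% in liver and 15.4% to 53.8% in 8 other libraries, a shift of 2.07 ± 0.51 (edgeR adjusted p = 0.0189). Its distal site rose to 8.86 and 8.51 CPM against 0 to 7.56. That site held 28 and 23 tags in liver and reached 20 tags elsewhere only in knockout lung. It was thus kept only with the liver libraries counted, where it is high, and this call is a description. A second pair on chromosome 18 (minus strand, 46746008 and 46745616) had 96.1% and 96.4% against 79.3% to 93.4%, a shift of 1.91 ± 0.54 (edgeR adjusted p = 0.0438), and its distal site rose to 77.6 and 70.3 CPM against 7.22 to 67.6. Apart from the pair on chromosome 11, these liver calls ended when either liver library was left out, with edgeR adjusted p-values of 0.404 and 0.181, 0.487 and 0.262, and 0.111 and 0.518 for the 3 pairs in the order 84266597, 46746008 and 49526838, wild type left out first. The muscle wild-type library also ended each of the 3 when left out (edgeR adjusted p = 0.0852, 0.193 and 0.0523). The call at 46746008 was also lost without wild-type or knockout heart (0.0521 and 0.0832), wild-type adipose tissue (0.0783) and wild-type or knockout kidney (0.0532 and 0.0526), and under 5 other settings, among them DESeq2 (0.0603). The call at 49526838 was also lost without wild-type heart (0.0552), knockout muscle (0.0670) and knockout adipose tissue (0.0629), and with DESeq2 (0.0668) and at equal depth (0.0895).

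Lung ended distally in 93.5% and 97.6% of tags at a pair on the minus strand of chromosome 5 (38918818 and 38918191, 627 nt apart), against 60.7% to 88.9% (median 81.3%) elsewhere. The shift was 2.56 ± 0.52 (edgeR adjusted p = 0.00297). The pair on chromosome 14 (minus strand, 67634505 and 67633509, 996 nt apart) had 88.7% and 89.7% in lung and 42.9% to 76.7% elsewhere, a shift of 2.56 ± 0.48 (edgeR adjusted p = 0.00171). In both pairs the distal site rose and the proximal site fell in lung.

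Other pairs went the opposite way in lung. On chromosome 11 (plus strand, 21220381 and 21221125) the distal share was 20% and 28.7% in lung and 42.1% to 74.4% (median 55.8%) elsewhere, a shift of -2.15 ± 0.45 (edgeR adjusted p = 0.00400). The proximal site rose to 25.5 and 16.7 CPM against 3.78 to 20.7 elsewhere, and the distal site fell. On chromosome 14 (minus strand, 35224247 and 35223920) the share was 11.9% and 9.37% in lung and 20.2% to 50% elsewhere, a shift of -1.89 ± 0.46 (edgeR adjusted p = 0.00966). There the distal site fell and the proximal site was not called (edgeR adjusted p = 0.256). The call at 38918818 was lost without the knockout lung library (edgeR adjusted p = 0.116), as was that at 35224247 (0.173), and the call at 21220381 without the wild-type library (0.0733).

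Adipose tissue used the distal site of a pair on the minus strand of chromosome 2 (126718975 and 126718038, 937 nt apart) in 60.6% and 77.8% of tags. Elsewhere the share was 9.64% to 50.7% (median 14%), and the 2 muscle libraries, at 50.7% and 50%, lay closest. The shift was 3.18 ± 0.56 (edgeR adjusted p = 0.00187). Here the distal site was not called (edgeR adjusted p = 0.459), and the proximal site fell to 4.82 and 4.04 CPM against 16.5 to 97.8. Likewise in the chromosome 17 pair described with muscle, the proximal site fell in adipose tissue (edgeR adjusted p = 0.00155) and the distal site was not called (edgeR adjusted p = 0.861).

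Adipose tissue was the most proximal in other pairs. The pair on chromosome 11 (plus strand, 59589719 and 59590103) had 2.16% and 5% distal tags in adipose tissue and 7.25% to 35.1% (median 16.1%) elsewhere, a shift of -2.48 ± 0.62 (edgeR adjusted p = 0.0210). Its proximal site rose to 50.4 and 48 CPM against 7.02 to 17.2. The pair on chromosome 5 (minus strand, 115597980 and 115597181) had 48.7% and 25.4% against 58.1% to 88%, a shift of -2.31 ± 0.52 (edgeR adjusted p = 0.0109). Without the knockout adipose library all 4 adipose calls were lost (edgeR adjusted p = 0.0936 at 126718975, 0.189 at 25975780, 0.0941 at 59589719 and 0.351 at 115597980). Leaving out the wild-type library ended those at 25975780 (0.122) and 59589719 (0.306), and the last was also lost without knockout muscle (0.0502), with DESeq2 (0.0661) and at equal depth (0.0742).

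Kidney was the most distal tissue in the chromosome 18 pair that heart used most proximally (35750459 and 35751122), with 68% and 67.9% against 2.46% to 61.3% elsewhere. The shift was 3.55 ± 0.43 (edgeR adjusted p = 1.31e-05). Over the 6 tissues this pair ran, wild type then knockout, from 2.48% and 2.46% in heart through 8.64% and 9.21% in muscle, 14.7% and 12.7% in adipose tissue, 33.8% and 21.3% in liver and 61.3% and 51.5% in lung to 68% and 67.9% in kidney. The 2 libraries of each tissue kept to the same order, with no overlap between neighbouring tissues. In kidney the proximal site fell and the distal site rose. On chromosome 5 (plus strand, 77428438 and 77428956) kidney had 85.5% and 72.6% and the others 18.8% to 70.9%, a shift of 2.04 ± 0.45 (edgeR adjusted p = 0.0118).

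Kidney was the most proximal tissue in a pair on the plus strand of chromosome 4 (106720844 and 106721298), with 48.1% and 63.6% against 73.3% to 95.7% in 8 other libraries. That shift was -2.20 ± 0.56 (edgeR adjusted p = 0.0323), and the distal site fell to 3.50 and 4.46 CPM against 7.56 to 31.5. In the pair on chromosome 10 (plus strand, 89281865 and 89282613) kidney had 67.5% and 71% and the others 74.3% to 97.2%, a shift of -2.08 ± 0.54 (edgeR adjusted p = 0.0328), with a rise at the proximal site and no call at the distal one (edgeR adjusted p = 0.975). Leaving out the wild-type kidney library ended the calls at 77428438, 106720844 and 89281865 (edgeR adjusted p = 0.337, 0.399 and 0.354), and so did leaving out the knockout library (0.0632, 0.162 and 0.148). The wild-type muscle library ended the last 2 as well (0.0554 and 0.0754), as did knockout muscle (0.0571 and 0.0527) and wild-type liver (0.0570 and 0.0545). Without knockout heart or knockout adipose tissue the call at 89281865 was also lost (0.0526 and 0.0511), as was that at 106720844 with DESeq2 (0.0510).

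**Figure D3:**
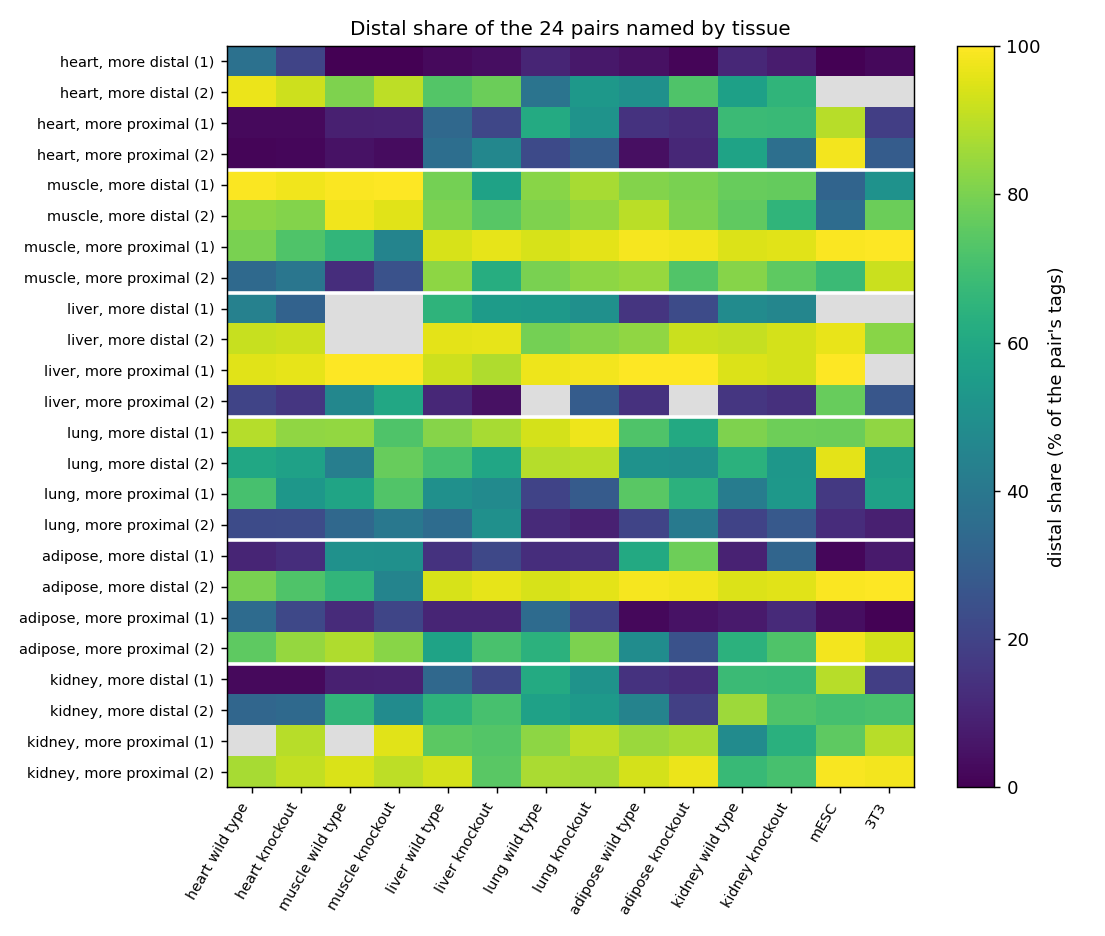
Distal share (colour, percent of the pair's tags) of the 24 tissue entries described in the text, 2 per tissue and direction (rows, in the order of the text's pairs within a direction), in the 14 libraries (columns). Grey cells had under 20 tags. In the rows of heart, more proximal (1), and kidney, more distal (1), which are the same pair, the share goes from 2.48% in wild-type heart to 68% in wild-type kidney.

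The 5 pairs with the most tags also varied between libraries. The most abundant, on chromosome 18 (plus strand, 78021250 and 78021604), held 231608 tags, and its distal share ran from 50.3% in wild-type kidney to 87.4% in wild-type lung. The same pair had 70.6% in knockout kidney, far from the wild-type value of that tissue. A pair on chromosome 5 (minus strand, 17288890 and 17288186, 56598 tags) ran from 46.7% to 73.9% over the tissue libraries and held no tag in mESC or 3T3. A pair on chromosome 14 (minus strand, 73762704 and 73762218, 39480 tags) ran from 68.3% to 96.8%. The chromosome 17 pair (minus strand, 35971751 and 35970870) took most of its 37734 tags from the cell lines, where the distal share was 8.02% (mESC) and 8.93% (3T3), against 13.2% (7 of 53 tags, wild-type heart) to 65% (26 of 40 tags, knockout kidney) in the tissues.

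Steady pairs were found at both ends of the scale. Of 61 pairs with 100 or more tags in each tissue library, the 5 of smallest spread had shares near 0 or 100%, where a percentage can move little. A small spread did not preclude a call. Among these 5, the liver pair at 54723544 was called as differing among the 6 tissues (edgeR adjusted p = 3.52e-07). So was a pair on chromosome 14 (plus strand, 22664740 and 22665098; edgeR adjusted p = 0.0256). On chromosome 8 (minus strand, 75091385 and 75090844) the share was 93% to 98.1% in the 12 tissue libraries, and on chromosome 11 (plus strand, 51936112 and 51936901) it was 3.20% to 9.70%. Both also held their side in the cell lines, at 90.1% and 5.11% in mESC and 70.4% and 1.84% in 3T3.

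The third comparison, between genotypes, asked whether loss of miR-22 moved the use of these sites. The median distal share was 53.5% in wild type and 53.2% in knockout as a mean of 6 tissues. The knockout minus wild-type difference was -0.237 ± 1.89 points (SD over 6 tissues; exact two-sided sign-flip permutation p = 0.719), higher in 2 tissues and lower in 4. The median log2 shift per pair was 0.00, beside 0.01 over all pairs tested.

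By pair, 1 of the 1132 was called more distal in knockout (0.0303% of all 3304 pairs) and 0 more proximal (0.0% of all). Without adjustment 70 of the 1132 pairs had a p under 0.05 by edgeR, beside 219 of all 3304, and DESeq2 gave the same counts of 1 and 0. The called pair lies on the plus strand of chromosome 1 (162968261 and 162968667, 406 nt apart). In wild type its tags, proximal then distal, were 69 and 1 for kidney, 73 and 5 for lung, 63 and 1 for liver, 27 and 6 for heart, 3 and 4 for muscle and 0 and 2 for adipose tissue. In knockout they were 41 and 143 for kidney, 213 and 1367 for lung, 60 and 427 for liver, 67 and 204 for heart, 0 and 118 for muscle and 1 and 232 for adipose tissue.

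Every knockout library thus held more distal than proximal tags at this pair, and the 4 wild-type libraries with 20 or more tags the reverse. Among those, the distal share was 1.43% to 18.2% in wild type and it was 75.3% to 100% in the 6 knockout libraries, higher in knockout in 4 of the 4 tissues measured in both genotypes (log2 shift 6.39 ± 0.57, edgeR adjusted p = 1.53e-07). Summed over tissues, the distal site went from 19 tags in wild type to 2491 in knockout and the proximal site from 235 to 382. The distal site reached 20 tags in 0 wild-type and 6 knockout libraries, and the pair held 20 or more tags in 4 wild-type and 6 knockout libraries. The minimum of 6 tissue libraries was thus met only with knockout libraries counted, and the call is a description. It held 62 distal tags in mESC and 137 in 3T3, with 3 and 5 proximal ones. The call was lost in a model without tissue terms (log2 shift 6.32, edgeR adjusted p = 0.138).

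**Figure D4:**
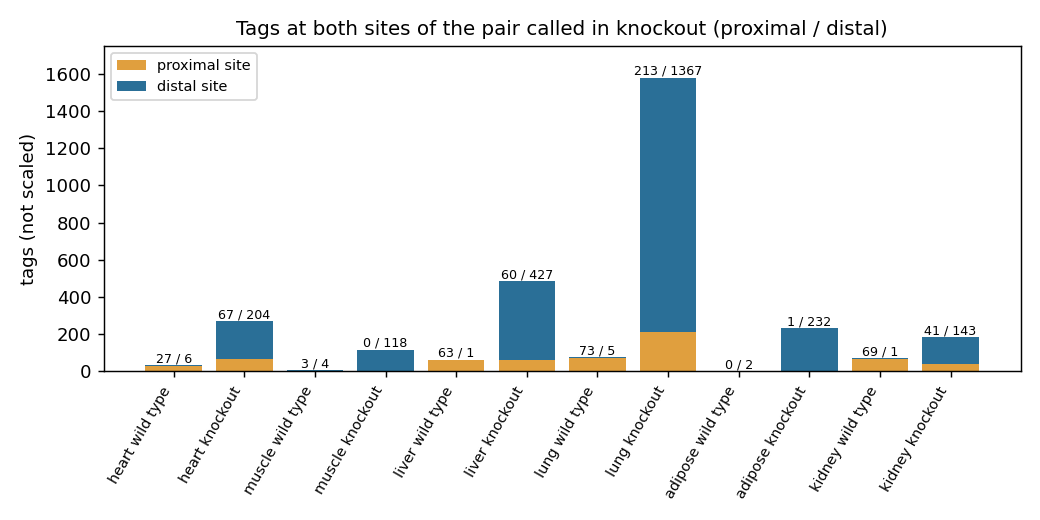
Tags (vertical axis, not scaled for library size) at the proximal (orange) and distal (blue) site of the chromosome 1 pair in the 12 tissue libraries, with both numbers above each bar. Distal tags number 1 to 6 in wild type and 118 to 1367 in knockout.

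Other kept sites upstream of this pair on the same strand did not share the contrast. The nearest, at 162967805, held 93 tags in wild type and 126 in knockout summed over tissues, and the next, at 162967572, held 73 and 32. Those at 162966262, 162966040 and 162965596 held 119 and 112, 85 and 103, and 47 and 68. These sums were not tested.

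Towards the proximal site in knockout, the 3 pairs of smallest p were not called. They lie on chromosome 14 (minus strand, 103376198 and 103375803; -1.64 ± 0.39, edgeR adjusted p = 0.311), chromosome 8 (plus strand, 74746920 and 74747344; -1.74 ± 0.44, edgeR adjusted p = 0.311) and chromosome 7 (plus strand, 146074410 and 146074736; -1.01 ± 0.32, edgeR adjusted p = 0.647). For the pair on chromosome 8, lung had 60.5% in wild type and 20.3% in knockout, kidney 36.1% and 6.59%, and liver 3.25% and 6.30%. Without the 2 liver libraries this pair passed (edgeR adjusted p = 0.0352).

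Within single tissues, 1 library per genotype allows no test. Among pairs with 100 or more tags in both genotypes, the distal share differed by over 20 points in 34 of 348 in kidney (25 higher in knockout, 9 lower), 49 of 670 in lung (20 higher, 29 lower), 15 of 203 in adipose tissue, 11 of 207 in heart, 3 of 335 in liver and 1 of 137 in muscle. Kidney had the largest share of such pairs (9.77%) and muscle the smallest (0.730%). Each tissue has its own set of pairs, from 137 in muscle to 670 in lung, so these shares do not rank the tissues. They were counted for the mid-distance pairs only. Whether they differ from the shares over all tandem pairs was not tested.

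The last comparison set the cell lines beside the tissues. With 1 library each there is no test, and mESC and 3T3 also differ from the tissues in their deposited intervals (up to 32 nt long against up to 36 nt), so cell origin and library batch cannot be told apart. Over the 471 pairs with 20 or more tags in all 14 libraries, the median distal share was 44.9% in mESC and 46.9% in 3T3, and 50.9% to 60.2% in the 12 tissue libraries. Both cell lines thus lay below every tissue library for the mid-distance pairs. Closer pairs had 45.8% in mESC and 43.5% in 3T3, and wider pairs 39.2% and 38%. For closer pairs the mESC value was not below every tissue library, with knockout adipose tissue at 45.4%.

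The cell lines differed from the tissues in both directions. Pairs at least 4-fold lower in the odds of the distal site than the tissue median and below every tissue library numbered 274 of 834 in mESC (32.4% of all pairs tested) and 244 of 888 in 3T3 (26.7% of all). Pairs at least 4-fold higher and above every tissue library numbered 151 in mESC (17.1% of all) and 126 in 3T3 (12.7% of all). In percent of the mid-distance pairs these are 32.9%, 27.5%, 18.1% and 14.2%, near the shares over all pairs. The cell lines counted towards the tags that kept a site, so some of these pairs were kept through the lines where a site is high. How many was not counted, and the counts are a description. Between the 2 cell lines the Spearman correlation of the distal share was 0.802 over 471 pairs. It was 0.468 to 0.627 for mESC with the tissue libraries and 0.622 to 0.692 for 3T3 with them.

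The cell lines also had a larger share of pairs that ended almost entirely at one site, a description without a test. The distal share was under 10% or over 90% in 197 of 471 pairs in mESC (41.8%; 115 under 10%, 82 over 90%) and in 178 in 3T3 (37.8%; 103 and 75), and in 14.4% to 23.4% of them in the tissue libraries (median 17.8%). In the 43 pairs with 100 or more tags in all 14 libraries these values were 51.2%, 41.9% and 16.3% to 32.6%, so the gap was also present where pairs held many tags. Such shares were counted for the mid-distance pairs only, and whether they differ from those over all tandem pairs was not tested. Cell line tags also counted towards keeping the sites.

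**Figure D5:**
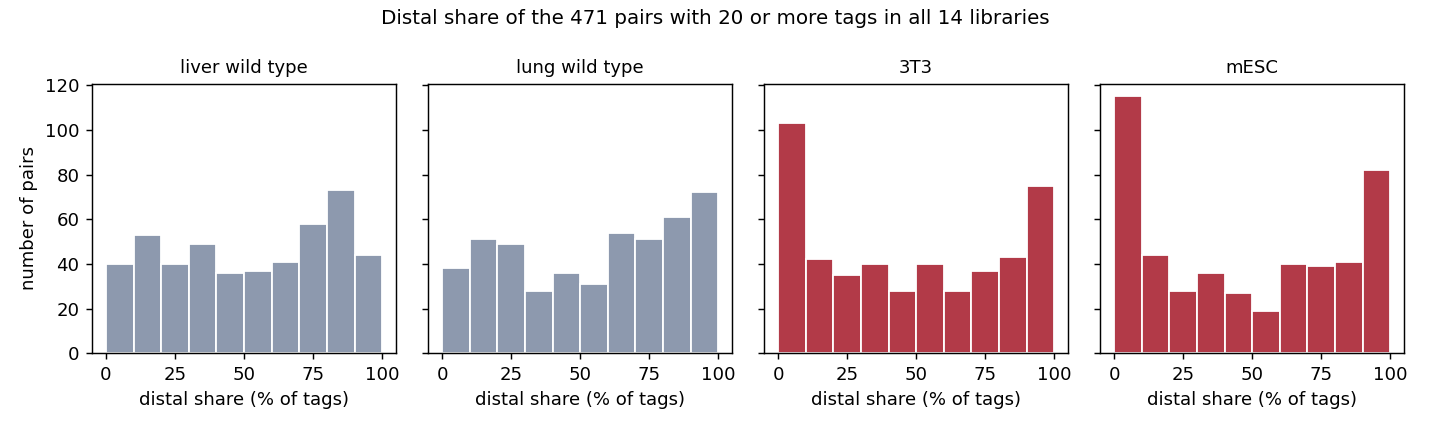
Number of pairs (vertical axis) by distal share in steps of 10 percentage points (horizontal axis) for the 471 pairs with 20 or more tags in all 14 libraries, in wild-type liver, wild-type lung, 3T3 and mESC. The outermost bars together hold 84 pairs in liver, 110 in lung, 178 in 3T3 and 197 in mESC.

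Among the largest differences with 50 or more tags in a cell line, intervals are exact Clopper-Pearson 95% intervals and cover counting error only. The distal share of a chromosome 17 pair (minus strand, 6942959 and 6942623, 336 nt apart) was 97.3% in mESC (718 of 738 tags, 95.8% to 98.3%) and 99.3% in 3T3 (434 tags, 98% to 99.9%). In the 8 tissue libraries with 20 or more tags the median was 3.95%, 7 of them lay between 1.24% and 9.63%, and knockout adipose tissue stood at 70.8% with 24 tags. A pair on the plus strand of that chromosome (41098603 and 41098937) had 100% in both lines, from 139 tags in mESC (97.4% to 100%) and 59 in 3T3 (93.9% to 100%), and 10% to 45.7% in 6 tissue libraries. In the tissues the distal site of the minus-strand pair held 122 tags in knockout lung and at most 17 in any other library. That of the plus-strand pair held at most 19. Both distal sites were thus kept only with the cell lines counted, where they are high, and these contrasts are a description. The heart pair on chromosome 13 (120246176 and 120247020) reached 98.3% in mESC (298 tags, 96.1% to 99.5%), while 3T3 had 29.3%, within the tissue range of 1.39% to 58.1%. On chromosome 1 (plus strand, 137930938 and 137931602) 3T3 and mESC had 100% (331 tags, 98.9% to 100%, and 267 tags), against 64.7% to 92.6%.

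Towards the proximal site, a pair on the plus strand of chromosome 1 (133828918 and 133829548, 630 nt apart) had 0 distal tags of 697 in mESC (0 to 0.528%) and 3.52% in 3T3, against 19.4% to 52% in 7 tissue libraries. A pair on chromosome 2 (plus strand, 132691886 and 132692520) had 0.485% in mESC (619 tags, 0.100% to 1.41%) and 4.52% in 3T3, against 21.7% to 83.2% in the tissues. On chromosome 8 (minus strand, 109570510 and 109570183) the share was 0 of 115 tags in mESC (0 to 3.16%) and 28.6% to 58.3% in the tissues. For 3T3 the pairs were on chromosome 6 (minus strand, 142311080 and 142310667; 3.03% of 66 tags, 0.369% to 10.5%, against 90.6% to 100%), chromosome 16 (minus strand, 15553541 and 15552769; 1.94% of 155 tags, 0.401% to 5.55%, against 56.5% to 94.8%) and chromosome 14 (plus strand, 27475580 and 27476320; 21.9% of 178 tags, 16.1% to 28.7%, against 93.3% to 99.7%). In each of these 3 the mESC value, 35.4%, 6.82% and 31%, also lay below the tissue range. Their proximal sites held at most 10, 20 and 9 tags in any tissue library, in the same order. These sites were thus kept only with the cell lines counted, where they are high. On chromosome 14 the 5% minimum was also met only with cell line tags counted. The contrasts of these 3 pairs are a description.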

How the data were processed

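Tags of poly(A) sites were measured by 3P-seq in 12 tissue and 2 cell line libraries from total RNA. Per the submitters' processing notes, CASAVA 1.7, Bowtie and build mm9 were used. The authors deposited estimated counts, here tags per interval that were not scaled by library. The Bowtie version and the making of intervals are not given in the sources used here.

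Intervals that overlap or touch on one strand were merged over the 14 libraries, and tags were rounded to whole numbers. This gave 159969 sites, of which 17919 autosomal ones passed 20 tags in 2 libraries. A site's position is where its most abundant interval ends in 3′ direction, with no offset applied. Pairs were fitted with edgeR 4.0.16 in R 4.3.3 over 24 columns, with a term per library, distal-by-tissue and distal-by-genotype, which leaves 5 residual degrees of freedom. The 2 libraries of a tissue serve as its replicates once genotype is a term. DESeq2 1.42.0 was an alternative. The steps were tested on simulated counts with 200 of 3304 pairs changed, drawn from pairs with a mean of 50 or more tags over the tissue libraries. Recovery of 2-fold, 4-fold and 8-fold changes in the odds was 0%, 68% and 90% for the lung contrast and 13.5%, 91% and 98% for genotype. Of the unchanged pairs, 0, 3 and 4 were called for lung and 0, 11 and 9 for genotype. Recovery in thinner pairs was not tested. Tags carry no molecular identifiers, so they need not be independent molecules.

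The pairs, named by chromosome and position, and the rule that named them (per tissue and direction up to 2 called pairs of largest shift with 20 tags in 10 tissue libraries and both libraries beyond the rest; for genotype up to 5 called pairs per direction of smallest p, or else 3; the largest odds differences in each cell line at 50 tags; the 5 pairs of most tags and the 5 of least spread) were chosen with earlier results of these data known.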

Additional observations from a re-analysis of the deposited data

Results flagged for a closer look

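Among the 6 wild-type libraries, lung stood apart in the share of pairs that ended almost entirely at one site. Of the 471 pairs with 20 or more tags in all 14 libraries, 23.4% had a distal share under 10% or over 90% in wild-type lung. The gap to the next wild-type library was larger, relative to the spread of the 6, than Dixon's 95% limit allows, a limit that chance passes in about 1 of 20 such groups, and 11 groups of 6 libraries were examined. Knockout lung had the same value, with 110 pairs each, but among the 6 knockout libraries its gap was 0.619 of the spread, under that limit (0.667 among wild type). The 2 lung libraries also held the most tags per pair, and the part of depth in this was not tested.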

How the results depend on the processing

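For the 24 tissue entries described, 490 values were recomputed under other settings: 490 kept their direction and 434 stayed past the threshold. Settings in which an entry's pair was absent gave no value and are not among the 490. The liver pair at 54723544 had a value in 19 settings, whereas other entries had up to 21. Equal depth (1823427 autosomal tags a library) and 100 tags in all 14 libraries were chosen after seeing the data. Counts of called pairs changed by over 1.5 times as follows, and the cause was not tested. At equal depth liver had 9 more distal, kidney 9 more distal, and lung 38 more distal and 16 more proximal. TMM over 24 columns gave 27 and 78 in lung and 19 more proximal in adipose tissue. DESeq2 gave 23 more distal in lung and 13 more proximal in both adipose tissue and kidney. No pair minimum gave 20 more proximal in lung, and a site minimum of 10 tags 10 more distal in kidney. Without tissue terms 0 pairs were called more distal in knockout. A 2-fold limit gave 191 pairs more distal in 3T3.

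Leaving out 1 library gave 111 to 241 pairs differing among tissues. More distal and more proximal pairs numbered 0 to 12 and 4 to 18 in heart, 1 to 45 and 2 to 43 in muscle, 2 to 22 and 2 to 33 in liver, 23 to 66 and 10 to 33 in lung, 0 to 19 and 0 to 44 in adipose tissue, and 2 to 29 and 2 to 27 in kidney. Without 1 tissue, 1 pair was called more distal in knockout and 0 to 1 more proximal, the 1 when liver was left out.

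Differences of medians that do not pass the threshold in the main setting changed sign under several settings. With all pairs of 20 tags in a library, heart was at -0.819 points, muscle -0.012, liver 0.000228 and kidney 0.565. With 50 tags in every tissue library kidney was at 0.651. By the share of summed tags muscle was at -4.17 and kidney 11.1. With a 10% site minimum heart was at -0.359 and kidney 0.0803, and with 10 tags heart at -0.706, liver 0.482 and kidney 0.363. Leaving out libraries gave -0.0643 to 0.818 in heart and -1.53 to 0.961 in kidney. Knockout minus wild type was 0.350 by summed tags and -0.783 to 0.347 without 1 tissue. Against closer pairs the difference was 8.14 with 50 tags and 5.50 by summed tags, and against wider pairs 11.2 and 9.43, each with an exact permutation p of 0.0312. The latter was -1.44 with a 10% minimum and -0.571 with a site minimum of 10 tags.

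The labels give no replicate numbers to pair by, and the genotype tests were paired by tissue. The median pair held 26 tags in knockout muscle, and how depth bears on single calls was examined only at equal depth.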
